A study of Mus musculus with 6 samples.

Results

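The core circadian clock genes are the 10 genes of the transcriptional feedback loop that keeps daily time in mammalian cells: the activators Arntl, Clock and Npas2, and the repressors Per1, Per2, Per3, Cry1, Cry2, Nr1d1 and Nr1d2. They were taken by symbol from count tables of 26214 features, and all 10 were among the 16281 genes with enough reads to test. The list was drawn up with the difference between knockout and wild-type tumours in view, so that difference is described for these genes and not tested. RNA was sequenced from colon tumours of mice given AOM/DSS, the carcinogen azoxymethane followed by the colon irritant dextran sulfate sodium, which together are a common model of tumours arising in an inflamed colon. The knockout group held 3 tumour samples of Trim21 -/- mice and the wild-type group 3 of Trim21 +/+ mice, and both groups had received the same agents. Trim21 is an intracellular ubiquitin ligase and antibody receptor. The labels give no strain, sex, age, hour of tissue collection or description of how the allele was made, and they do not say whether each biological replicate was a separate mouse, so the spread between samples may be partly technical.

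In the clock of most tissues, the protein of Arntl, also called BMAL1, pairs with that of Clock or Npas2 and switches on the Per, Cry and Nr1d genes through E-box sequences. The PER and CRY proteins then return to the nucleus and block this pair, while the REV-ERB proteins of Nr1d1 and Nr1d2 silence Arntl in a second loop. As a result Arntl and Nr1d1 RNA normally peak at opposite times of day, and the clock of the colon lining times cell division, absorption and motility.

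Library totals ran from 17937821 to 19987295 counts in the knockout group and from 27085599 to 29742757 in the wild type, so every knockout library was shallower. Levels are given as CPM, the counts a gene would have in a library scaled to 1000000 counts. The lowest count of any clock gene in any library was 235, for Nr1d1, where counting error alone has a coefficient of variation of 6.52%. Trim21 measured 12.1, 18.9 and 12.8 CPM in the knockout samples, in order of replicate number here and below, against 29.75, 20.35 and 19.5 CPM in wild-type ones, lower in each knockout library but not absent, and counts per gene do not show whether a deleted segment is missing. All 11 markers of colon epithelium had reads in every library, and their summed level was 8845 to 9383 CPM in knockout libraries and 7739 to 8829 CPM in wild-type libraries.

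The 250 bases before a RefSeq transcription start are shown for 4 of the genes, because these windows hold short sequences through which the loop is known to act. RefSeq promoter windows of build GRCm38.p6 were found for 9 of the 10 genes, 13 windows in all, and Per2 had none in the table. A RefSeq start need not be the end of the GENCODE gene span given with each gene: the Per1 window lies inside the Per1 span, and the Nr1d1 window starts some bases beyond the Nr1d1 span. Each window was searched on both strands for the E-box CACGTG, its variant CACGTT, the D-box TTATGTAA bound by Dbp, Tef, Hlf and Nfil3, the core TAGGTCA bound by REV-ERB and ROR proteins, and the cAMP response element TGACGTCA. No match overlapped another. Capitals mark the matches, and each sequence reads 5′ to 3′ on the strand of its gene.
Per1, chr11:69098699-69098948, plus strand: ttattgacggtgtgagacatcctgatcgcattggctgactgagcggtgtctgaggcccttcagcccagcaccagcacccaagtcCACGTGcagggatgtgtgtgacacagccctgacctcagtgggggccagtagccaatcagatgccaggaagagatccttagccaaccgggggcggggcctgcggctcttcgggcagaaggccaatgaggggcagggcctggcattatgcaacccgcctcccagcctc
Per3, chr4:151044666-151044915, minus strand: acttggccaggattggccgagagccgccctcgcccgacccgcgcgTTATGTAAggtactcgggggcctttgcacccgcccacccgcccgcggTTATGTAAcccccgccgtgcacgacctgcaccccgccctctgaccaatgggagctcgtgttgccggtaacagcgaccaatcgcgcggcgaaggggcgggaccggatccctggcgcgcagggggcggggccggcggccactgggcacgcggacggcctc
Cry1, chr10:85185055-85185304, minus strand: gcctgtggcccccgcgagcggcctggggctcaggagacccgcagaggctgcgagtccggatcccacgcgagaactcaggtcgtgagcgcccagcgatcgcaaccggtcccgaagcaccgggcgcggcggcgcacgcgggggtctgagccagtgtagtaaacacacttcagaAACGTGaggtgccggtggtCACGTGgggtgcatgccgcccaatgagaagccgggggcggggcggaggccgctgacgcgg
Nr1d1, chr11:98775378-98775627, minus strand: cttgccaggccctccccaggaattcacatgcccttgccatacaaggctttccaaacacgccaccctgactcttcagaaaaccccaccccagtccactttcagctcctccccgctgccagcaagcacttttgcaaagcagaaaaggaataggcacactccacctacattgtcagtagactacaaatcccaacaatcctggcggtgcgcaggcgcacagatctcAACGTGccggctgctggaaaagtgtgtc

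The E-box stood in the windows of Per1 and Cry1, and in 6.02% of the 32817 windows of all genes. Its variant CACGTT, read as AACGTG on the gene's strand, stood in those of Cry1, Cry2 and Nr1d1 and in 3.85% of all windows. Per3 held 2 copies of the D-box, which occurred in 0.817% of all windows. The core TAGGTCA and the cAMP response element were in none of the 13 windows, and in 2.24% and 1.55% of all windows. A match is a run of letters and not a shown binding site, and elements outside 250 bases were not searched.

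The clock genes did not move as one block between the genotypes. Per1, Per2, Per3 and Cry1 lay above the whole wild-type range in each knockout tumour, with fitted group folds of 1.46 to 2.45, while Arntl, Clock, Npas2, Cry2, Nr1d1 and Nr1d2 overlapped between the groups. Groups that did not overlap, with the knockout higher, were found for 4 of the 10 clock genes and for 9.43% of all tested genes, and with the knockout lower for 0 of 10 and 8.47%. DESeq2 called Per2, Per3 and Cry1 higher, 3 of the 10, and 1.61% of all genes. Because the list was chosen on this contrast, nothing is read from these shares. The median log2 fold change was 0.29 over the 10 genes and −0.01 over all tested genes. With the quasi-likelihood test of edgeR, 0 of all tested genes passed an adjusted p of 0.05 (0%), 1750 had an unadjusted p under 0.05 (10.7%), and DESeq2 and limma-voom called 337 and 0 genes.

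**Figure D1:**
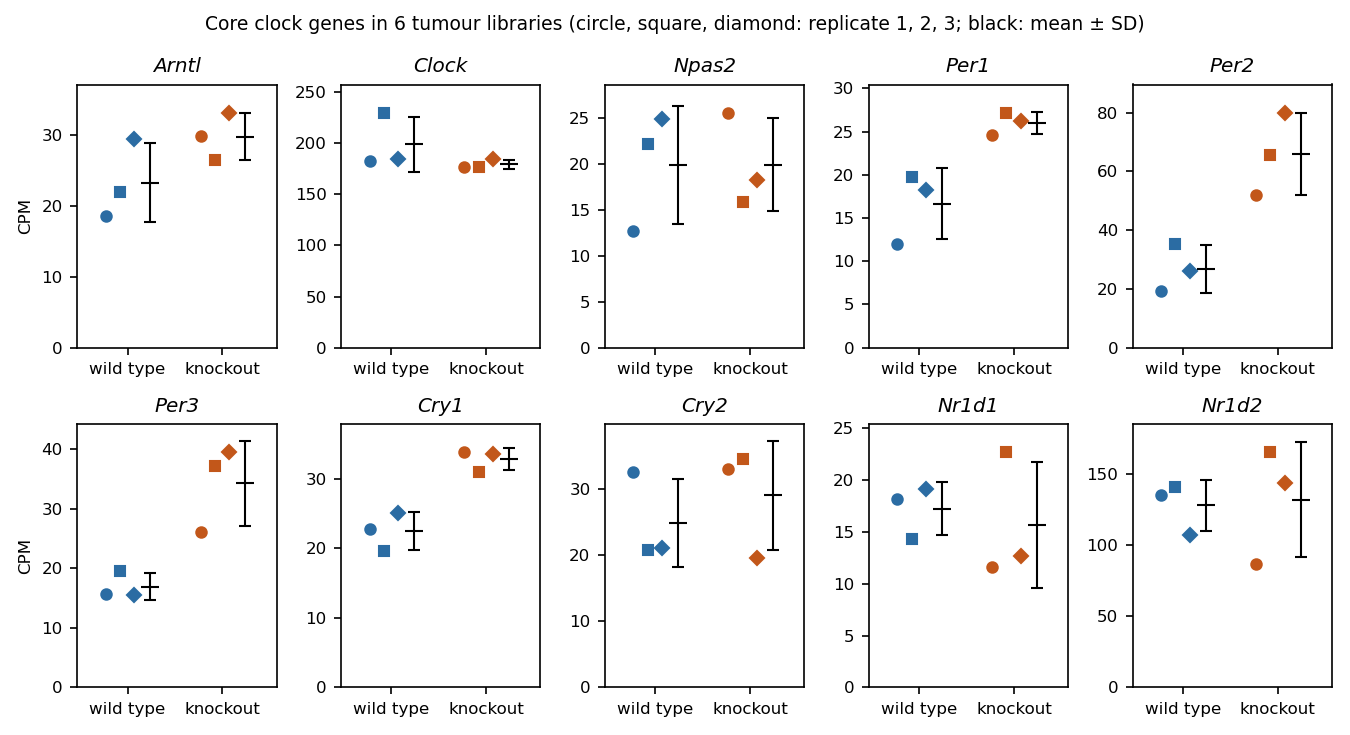
CPM of each core clock gene in the 6 libraries (vertical axes, linear and starting at 0), with wild-type samples in blue and knockout samples in orange, and mean ± SD in black. Per1, Per2, Per3 and Cry1 show no overlap between the groups, with Per2 between 51.9 and 79.9 CPM in the knockout and between 19.1 and 35.4 CPM in the wild type.

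Among the repressors, the Period genes had the largest log2 fold changes. For Per1 this rank did not hold without wild-type replicate 1, where Per1 stood at 0.45 and Cry1 at 0.55. Per2, whose protein is the scaffold of the repressive complex, lies on chromosome 1 from 91415982 to 91459324 on the minus strand. It measured 51.9, 65.7 and 79.9 CPM in the knockout and 19.1, 35.4 and 26.1 CPM in the wild type. The lowest knockout value was thus above the highest wild-type value, and the group means were 65.8 ± 14.0 and 26.9 ± 8.18 CPM (SD, n = 3 each). The log2 fold change was 1.29 ± 0.25 (SE), a 2.45-fold higher level, the largest of the 10 genes. Leaving out single libraries put it between 1.10, without wild-type replicate 1, and 1.54, without wild-type replicate 2.

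Per3, a Period gene that is less essential for rhythm keeping than Per1 and Per2, lies on chromosome 4 from 151003652 to 151044665 on the minus strand. It measured 26.1, 37.2 and 39.5 CPM in the knockout and 15.7, 19.5 and 15.5 CPM in the wild type. The wild-type libraries were close to each other, with a coefficient of variation of 13.4%, and the knockout spread was carried by replicate 1. The log2 fold change was 1.02 ± 0.19 (SE), a 2.03-fold higher level.

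Per1, the Period gene that responds fastest to light, hormones and other acute signals, lies on chromosome 11 from 69095217 to 69109960 on the plus strand. Its knockout values of 24.7, 27.2 and 26.2 CPM were the most even of the Period genes, and its wild-type values were 12.0, 19.7 and 18.2 CPM. Wild-type replicate 1 was the low library, and the log2 fold change of 0.64 (standard error 0.20) was 0.45 without it. Whether the difference between the groups was larger for Per2 than for Per1 was not tested. Read density per kilobase of exon for Per2 was 2.02, 2.32 and 2.94 times that of Per1 in the knockout and 1.53, 1.73 and 1.37 times in the wild type, so this ratio within libraries did not overlap between the groups either.

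The Cryptochromes, which bind the activator pair directly and shut it off, both had positive log2 fold changes. Cry1, on chromosome 10 from 85131700 to 85185064 on the minus strand, measured 33.8, 31.0 and 33.6 CPM in the knockout and 22.8, 19.7 and 25.1 CPM in the wild type. Replicates of this gene were tight in both groups, with coefficients of variation of 4.80% and 12.1%, and the log2 fold change was 0.54 ± 0.13 (SE). Cry2, on chromosome 2 from 92403646 to 92434043 on the minus strand, measured 33.0, 34.5 and 19.6 CPM against 32.4, 20.8 and 21.1 CPM. Its groups overlapped because knockout replicate 3 was low and wild-type replicate 1 high. Its log2 fold change was 0.23 ± 0.27 (SE), and the estimates ran from 0.08 without knockout replicate 2 to 0.47 without wild-type replicate 1. Of the exon bases of Cry2, 4.67% are shared with the opposite-strand gene D930015M05Rik, whose reads cannot be told apart here since the strand setting of the counting is not given. Whether Cry1 and Cry2 differed in their response was not tested, and the ratio of Cry1 to Cry2 per kilobase overlapped between the groups, at 2.30 ± 0.837 and 1.79 ± 0.460 (SD, n = 3 each).

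The REV-ERB genes, repressors of Arntl, did not follow the Period genes. Nr1d1, on chromosome 11 from 98767932 to 98775333 on the minus strand, measured 11.7, 22.7 and 12.7 CPM in the knockout and 18.2, 14.35 and 19.2 CPM in the wild type. Knockout replicate 2 was the highest of all 6 libraries and the other knockout libraries were the lowest, so the group ranges nested. The log2 fold change was −0.14 ± 0.27 (SE), and leaving out knockout replicate 2 or 1 put it at −0.50 or 0.05. Its exons share 263 bases, 8.55% of their length, with Thra on the opposite strand. Nr1d2, on chromosome 14 from 18204054 to 18239127 on the minus strand, measured 87.0, 165.2 and 143.8 CPM against 135.5, 141.1 and 107.3 CPM. Again knockout replicate 2 was the highest and knockout replicate 1 the lowest, and the log2 fold change was 0.04 ± 0.23 (SE).

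In the activator arm, no gene separated the genotypes. Arntl, on chromosome 7 from 113207465 to 113314126 on the plus strand, measured 29.8, 26.4 and 33.1 CPM in the knockout and 18.5, 21.9 and 29.3 CPM in the wild type. Only wild-type replicate 3 reached into the knockout range, and the log2 fold change was 0.36 ± 0.19 (SE). Without wild-type replicate 3 it was 0.55, and without wild-type replicate 1 it was 0.22. Clock, on chromosome 5 from 76209868 to 76304792 on the minus strand, measured 177.0, 176.4 and 184.7 CPM against 182.4, 229.8 and 184.5 CPM. It was the steadiest clock gene in the knockout, with a coefficient of variation of 2.58%, and its log2 fold change was −0.15 ± 0.11 (SE). Npas2, a relative of Clock that can take its place beside BMAL1, lies on chromosome 1 from 39193731 to 39363236 on the plus strand. It measured 25.6, 15.9 and 18.3 CPM in the knockout and 12.7, 22.1 and 25.0 CPM in the wild type. These ranges covered each other almost fully, with a log2 fold change of −0.001 ± 0.29 (SE).

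**Figure D2:**
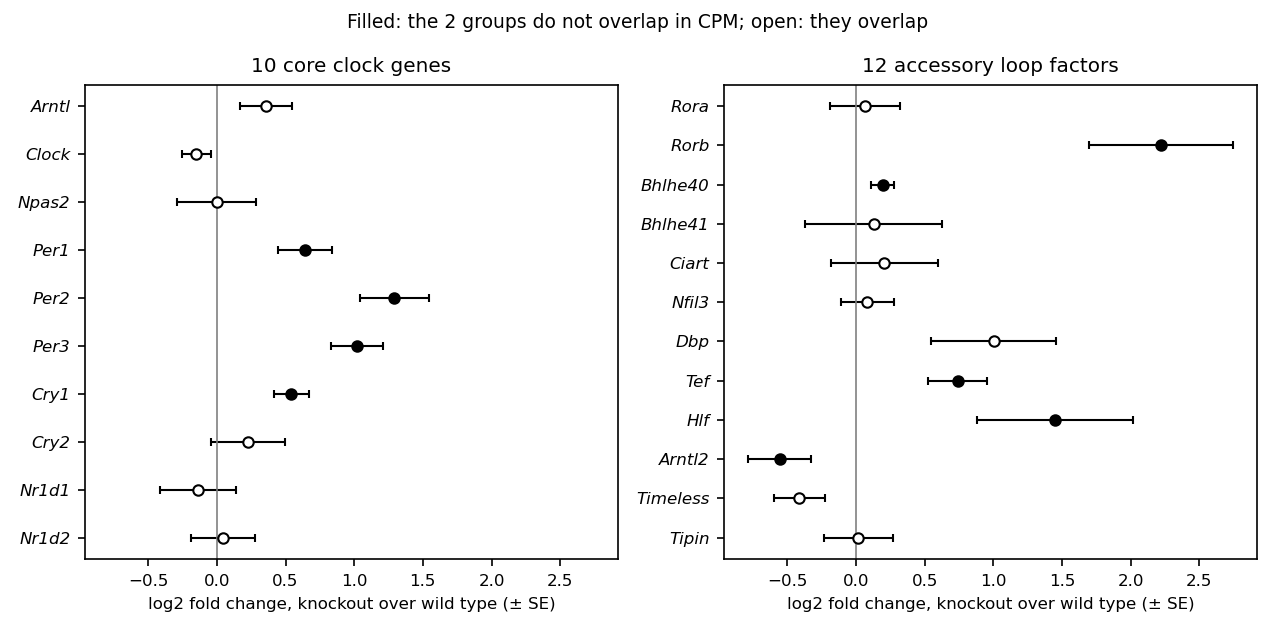
Log2 fold change of knockout over wild type with its standard error (horizontal axis) for the 10 core clock genes and for 12 accessory factors of the loop. Filled points mark genes whose groups do not overlap in CPM, which are Per1, Per2, Per3 and Cry1 on the left and Rorb, Bhlhe40, Tef, Hlf and Arntl2 on the right.

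Set against each other, the arms did not shift in opposite directions. The mean log2 CPM of Arntl, Clock and Npas2 was 5.56 ± 0.148 in the knockout and 5.47 ± 0.294 in the wild type (SD, n = 3 each), a difference of 0.09 that lay within the spread and turned to −0.08 without wild-type replicate 1. With the median of the genes in place of the mean, the difference was 0.37. The mean of the 7 repressors was 5.22 ± 0.201 against 4.72 ± 0.056, a difference of 0.51, and 0.75 with the median. Within the repressors, the 5 Per and Cry genes accounted for this, at 5.13 ± 0.094 against 4.38 ± 0.105. The Rev-erb pair stood at 5.45 ± 0.471 against 5.55 ± 0.077. The activator mean less the repressor mean, which does not depend on library scaling, was 0.66, −0.03 and 0.37 in the knockout samples against 0.47, 0.82 and 0.98 in the wild-type ones. These overlapped between the groups, with a difference of −0.42 that ranged from −0.59 without knockout replicate 1 to −0.24 without knockout replicate 2. The Per and Cry mean less the Rev-erb mean was 0.03, −0.72 and −0.28 in the knockout and −1.36, −1.01 and −1.12 in the wild type, and did not overlap.

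**Figure D3:**
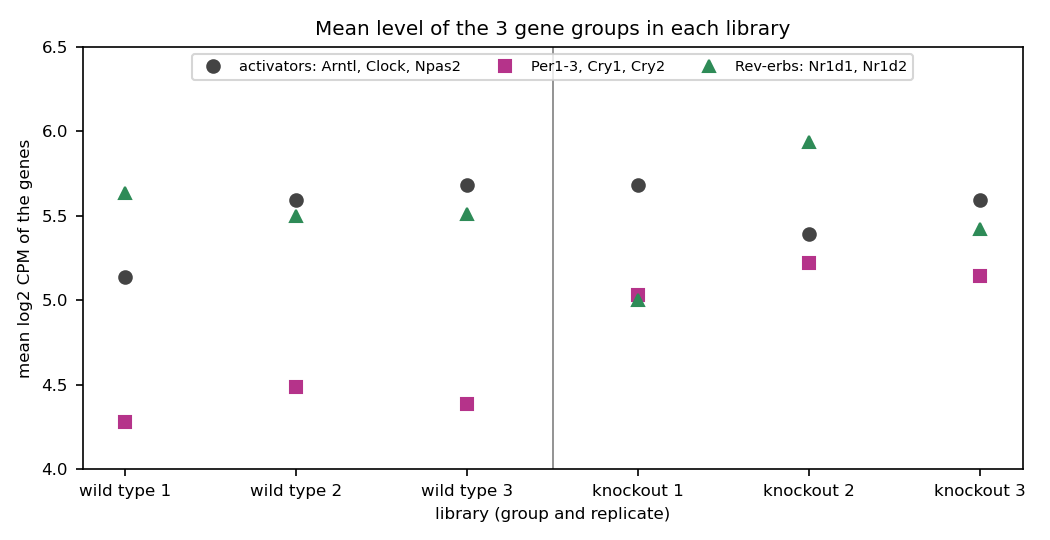
Mean log2 CPM (vertical axis) of the activators, of the Per and Cry genes and of the Rev-erb genes in each of the 6 libraries (horizontal axis). The Per and Cry mean lies between 5.03 and 5.22 in the knockout and between 4.28 and 4.49 in the wild type, while the other means overlap.

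Ratios between clock genes of the same library, per kilobase of exon, use the same counts as above and are no separate support. Per2 stood at 2.24, 3.20 and 3.10 times Arntl in the knockout and at 1.33, 2.08 and 1.14 times in the wild type. Relative to Nr1d1, Per2 stood at 2.34, 1.52 and 3.30 times in the knockout and at 0.554, 1.30 and 0.713 times in the wild type. Both ratios were higher in each knockout library than in any wild-type one, but wild-type replicate 2 came close to knockout replicate 1 for the first and to knockout replicate 2 for the second. Arntl relative to Nr1d1, the pair that normally peaks in opposite phases, stood at 1.04, 0.475 and 1.06 against 0.417, 0.624 and 0.625, which overlapped. Clock relative to Npas2 and Nr1d2 relative to Nr1d1 overlapped too, while Per3 relative to Nr1d1 did not.

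By level per kilobase of merged exon, Nr1d2 was the most abundant clock transcript in both groups, at 24.4 ± 7.47 CPM per kilobase in the knockout and 23.7 ± 3.35 in the wild type (SD, n = 3 each), followed by Clock at 13.1 ± 0.337 and 14.5 ± 1.95. In the wild type Cry1 (6.74 ± 0.816), Nr1d1 (5.60 ± 0.829), Per2 (4.59 ± 1.40), Npas2 (4.16 ± 1.34) and Cry2 (3.92 ± 1.05) came next, then Arntl (3.09 ± 0.735) and Per1 (2.96 ± 0.725), and from Cry1 to Per1 each gene overlapped its neighbour within 1 SD. Per3 was the lowest at 1.76 ± 0.236, below Per1 by more than their spread. In the knockout Per2 (11.2 ± 2.40) and Cry1 (9.82 ± 0.472) were the third and the fourth, where Per2 overlapped both Clock and Cry1 within 1 SD. Below Cry1, by more than their spread, came Nr1d1 (5.10 ± 1.98), Per1 (4.62 ± 0.226), Cry2 (4.59 ± 1.30), Npas2 (4.16 ± 1.06), Arntl (3.95 ± 0.448) and Per3 (3.57 ± 0.745), each of which overlapped the next. Merged exon length counts every annotated exon, 13727 bases for Clock, whichever transcripts these tumours used.

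Within the genotypes, pooled over both, most clock genes varied more than the median tested gene in their range of levels. This spread does not use the difference between the genotypes. The SD of log2 CPM within groups, pooled over both, had a median of 0.325 over the 10 genes. Over the 8246 tested genes in the same range of levels the median was 0.159, and 8 of the 10 clock genes lay above it. Clock and Cry1 were the 2 that did not. That range ran from the lowest to the highest clock gene, so levels were not matched gene by gene. In knockout replicates 1 and 2, both Rev-erb genes deviated opposite to Npas2. Replicate 2 was highest for Nr1d1 and Nr1d2, by 0.60 and 0.37 above the group mean on the log2 scale, and lowest for Arntl and Npas2, by −0.17 and −0.30. Replicate 1 was lowest for Nr1d1 and Nr1d2, at −0.36 and −0.55, and highest for Npas2, at 0.39. In replicate 3, Nr1d1 and Npas2 were both below the mean, at −0.23 and −0.09, and Nr1d2 above it, at 0.17. Among the wild-type libraries, replicate 1 was lowest for Arntl, Npas2, Per1 and Per2, at −0.30, −0.59, −0.43 and −0.44, with Nr1d1 and Nr1d2 both at 0.09. Replicate 3 was highest for both Arntl and Nr1d1, at 0.36 and 0.17.

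**Figure D4:**
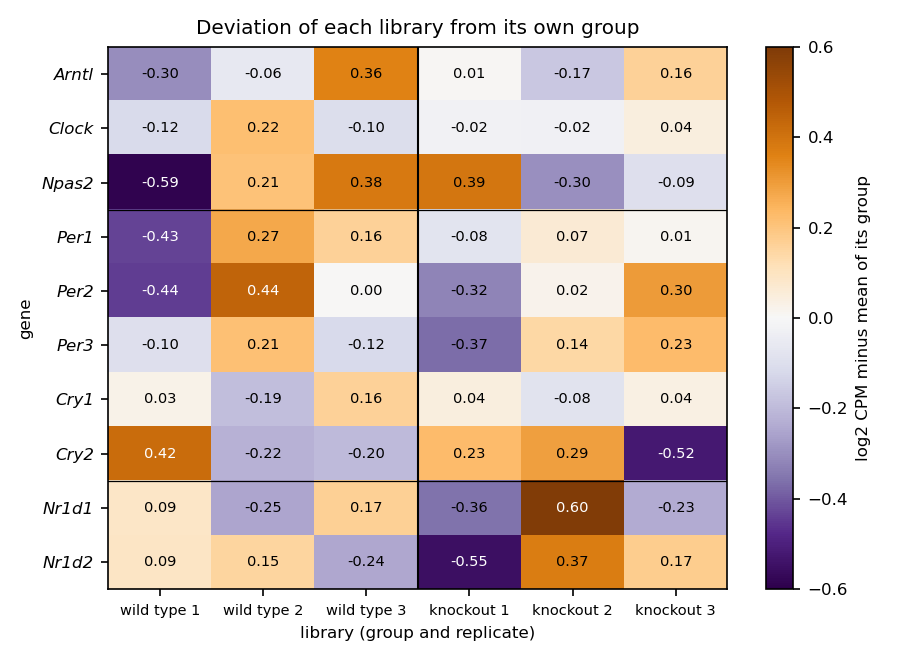
Log2 CPM of each clock gene in each library less the mean of its own group (colour and printed value), with libraries across and genes down. In knockout replicate 2 the Rev-erb genes are high and Arntl and Npas2 low, and in wild-type replicate 1 Arntl, Npas2, Per1 and Per2 are all low.

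The factors around the core loop were read from the fit over all genes. Of 12 accessory loop factors, which include Rora, Rorb and the D-box proteins, 0 passed an adjusted p of 0.05, and 10 had a positive log2 fold change, against 47.9% of all tested genes. The groups did not overlap for 4 with the knockout higher and for 1 with it lower, against 9.43% and 8.47% of all tested genes. Their median log2 fold change was 0.16. Rorb, a receptor gene whose product activates Arntl in some tissues, was near 1 CPM and below, with knockout and wild-type means of 1.05 ± 0.351 and 0.221 ± 0.0743 CPM (SD, n = 3 each; edgeR adjusted p = 0.334). Rora, its relative, overlapped with a log2 fold change of 0.07. The repressor gene Bhlhe40 measured 301.3, 283.3 and 293.8 CPM in the knockout and 268.0, 263.7 and 235.2 CPM in the wild type, apart by a small gap (log2 fold change 0.20, edgeR adjusted p = 0.470).

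Tef and Hlf, activators that bind D-boxes such as those in the Per3 window, had log2 fold changes of 0.74 and 1.45 (edgeR adjusted p = 0.357 and 0.437). Tef measured 43.0, 76.8 and 67.0 CPM in the knockout and 36.0, 33.6 and 42.2 CPM in the wild type, with replicate 1 just above the wild-type range. Hlf was low, at 3.42, 4.72 and 5.17 CPM against 0.906, 0.779 and 3.19 CPM, and its log2 fold change was 2.39 without wild-type replicate 3. Dbp, the D-box activator that follows BMAL1 most directly, measured 2.88, 10.3 and 5.02 CPM in the knockout and 3.22, 3.22 and 2.63 CPM in the wild type. Its high knockout value came from replicate 2, the library with the highest Nr1d1 and Nr1d2, and the groups overlapped. Ciart, a repressor of the activator pair, was likewise highest in knockout replicate 2, at 4.89 CPM, and lowest among the knockout libraries in replicate 1, at 2.13 CPM. Nfil3, which opposes the D-box activators, had a log2 fold change of 0.08. Arntl2, a relative of Arntl, measured 19.3, 23.6 and 20.2 CPM in the knockout and 42.3, 26.6 and 23.8 CPM in the wild type (log2 fold change −0.55, edgeR adjusted p = 0.459), with the gap to the wild type small except for its replicate 1, and −0.26 without that library.

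Genes that modify clock proteins had log2 fold changes from −0.55, for the ligase gene Fbxl21, whose groups overlapped, to 0.26. Of 25 kinases, phosphatases, ubiquitin ligases and cofactors, 0 passed, 9 had positive and 16 negative log2 fold changes, and the median was −0.07. The groups did not overlap for 5 with the knockout lower (Csnk1e, Csnk2a1, Fbxw11, Hdac3 and Nono), against 8.47% of all tested genes, and for 0 with it higher. Hdac3, the deacetylase that REV-ERB recruits, measured 74.6, 70.9 and 71.0 CPM in the knockout and 88.3, 83.4 and 88.1 CPM in the wild type. Its replicates were tight and its groups apart, at a log2 fold change of −0.26 ± 0.08 (SE, edgeR adjusted p = 0.379). Csnk1e, a kinase that marks PER proteins for breakdown, had −0.26 (adjusted p = 0.527), Nono −0.24 (adjusted p = 0.474) and Fbxw11, of the ligase that removes PER, −0.17 (adjusted p = 0.516), all by edgeR.

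Of 20 output genes that follow the clock in many tissues, 0 passed, 13 were positive and 7 negative, with a median of 0.10. The groups did not overlap for 4 with the knockout higher, which were Wee1, Tspan4, Ppara and Mtss1, and for 0 with it lower, against 9.43% and 8.47% of all tested genes. Ppara, a fatty acid receptor gene, had a log2 fold change of 1.03 and the tetraspanin gene Tspan4 0.57 (edgeR adjusted p = 0.438 and 0.418). Lonrf3 and Mtss1 had 0.45 and 0.30 (edgeR adjusted p = 0.461 and 0.50). Wee1, a kinase gene that holds back mitosis, measured 29.1, 28.3 and 27.1 CPM in the knockout and 24.5, 18.1 and 26.1 CPM in the wild type.

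Per1 and Per2 are also induced outside the loop by glucocorticoids and by growth factor signals, so genes of these pathways were counted. Of 11 glucocorticoid-responsive genes other than Per1, 0 passed, 7 were positive and the median was 0.22. Sgk1, a kinase gene of sodium transport, measured 137.4, 94.8 and 137.2 CPM in the knockout and 38.0, 59.3 and 52.9 CPM in the wild type (log2 fold change 1.30, edgeR adjusted p = 0.322, DESeq2 adjusted p = 5.00e-06). Fkbp5, which tempers the glucocorticoid receptor, measured 100.9, 73.0 and 88.1 CPM against 17.5, 55.6 and 41.9 CPM (log2 fold change 1.19, edgeR adjusted p = 0.388, DESeq2 adjusted p = 0.0428). The groups were apart with the knockout higher for these 2 of the 11, against 9.43% of all tested genes, and with it lower for 0. Tsc22d3, Errfi1, Dusp1 and Mt1 overlapped, with log2 fold changes of 0.38, 0.31, 0.25 and 0.03. So did Cebpd, Ddit4, Mt2 and Zbtb16, with −0.05, −0.10, −0.17 and −0.19. Of 16 immediate early genes, 0 passed and 10 were positive, with a median of 0.23. Their groups were apart with the knockout higher for 4 and with it lower for 0, against 9.43% and 8.47% of all tested genes. Fos measured 148.8, 120.0 and 139.6 CPM in the knockout and 70.4, 104.5 and 97.0 CPM in the wild type (log2 fold change 0.59, edgeR adjusted p = 0.345). Klf4, Egr1 and Nr4a1 had log2 fold changes of 1.17, 0.51 and 0.56 (edgeR adjusted p = 0.334, 0.357 and 0.447) and groups that were apart, and DESeq2 called Klf4 at an adjusted p of 0.0021, while Jun and Myc had −0.21 and −0.23.

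Markers of several cell types differed between the same libraries as the Per genes. The summed level of 11 smooth muscle markers was 973 to 1564 CPM in the knockout and 367 to 882 CPM in the wild type, and all 11 had positive log2 fold changes. For 15 mature colonocyte markers the ranges were 3957 to 6544 and 2544 to 3495 CPM, with 11 positive, and for 12 leukocyte markers 1422 to 3773 and 691 to 1112 CPM, with 11 positive. Goblet cell, fibroblast and endothelial sums overlapped between the groups, with 10 of 10, 10 of 10 and 7 of 8 markers positive. Goblet cell markers had the highest median log2 fold change of these lists, 1.27. The groups were apart with the knockout higher for 6 of the 10, against 9.43% of all tested genes. The same held for 8 of 15 mature colonocyte, 7 of 11 smooth muscle and 6 of 12 leukocyte markers. It also held for 2 of 10 fibroblast and 3 of 8 endothelial markers, and each of these lists had 0 apart with the knockout lower. The enteric neuron and glia sum was lower in the knockout, at 45.6 to 53.4 against 63.5 to 80.4 CPM, although 7 of the 9 tested markers had positive log2 fold changes, and Sox10 and Gfap were at 0 in at least 1 library. Wild-type replicate 1, the lowest library for Per1 and Per2, was also the lowest library for the sums of 6 of the 8 marker lists, all but the fibroblast and enteric lists. The part of these markers in the clock gene differences was not tested, and in bulk tumour RNA fewer cells of a type and less RNA per cell cannot be told apart. Without wild-type replicate 1 the log2 fold changes of Per1, Per2, Per3 and Cry1 were 0.45, 1.10, 0.97 and 0.55. Wild-type replicates 2 and 3 also lay below every knockout library for the smooth muscle, mature colonocyte and leukocyte sums. Leaving out replicate 1 therefore does not separate the clock genes from these markers.

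The genes whose profile over the 6 libraries came closest to that of a clock gene were found by the root mean square difference of centred log2 CPM, among 13010 tested genes. For Arntl these were Cdhr2, a cadherin of the brush border, at 0.062, then Nt5dc3 at 0.078, Sirt3, a mitochondrial deacetylase, at 0.084 and Fam117a at 0.086. The closest clock gene was Cry1 at 0.196, and Nr1d1 stood at 0.512. For Nr1d1 the closest was Itgax, an integrin of dendritic cells and macrophages, at 0.133. Ubtd1, Map1s and the growth factor gene Pdgfb followed at 0.151, 0.155 and 0.159, and Nr1d2 stood at 0.326. The candidates far outnumbered the clock genes, so their being nearer can come from number alone, and nothing is read from it. The profiles also include the difference between the groups. The mirror image of Arntl was met most closely by the polarity gene Pard6g at 0.033, then Csf1, a macrophage growth factor, Ddah2 and Tmeff1 at 0.077, 0.078 and 0.079. Among the clock genes Clock came nearest to that mirror image, at 0.266, and Per2 was farthest, at 0.952. Arntl itself stood at 0.57 from its mirror image, and a flat profile would lie midway, close to Clock. The distance of Clock is thus not a sign of a course opposite to Arntl. Per2 was also far from Arntl itself, at 0.561.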

How the data were processed

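The authors deposited whole-number read counts per gene symbol, 1 table for each of the 6 libraries of ribosome-depleted total RNA. Build mm10, TopHat2, edgeR and limma are named, per the submitters' processing notes. Their versions, the read counter, its strand setting and its gene models are not given in the sources. The test was edgeR 4.0.16 (quasi-likelihood F) under R 4.3.3, with group as the only term, TMM scaling (factors 0.977 to 1.02), filterByExpr and Benjamini-Hochberg adjustment over all tested genes, two-sided, with a threshold of 0.05. CPM is the count per 1000000 of the TMM-scaled library, and log2 CPM has a prior count of 2. A standard error is the log2 fold change divided by the square root of F. Gene positions and merged exon lengths come from GENCODE M21 on GRCm38, the assembly of mm10. Alternatives used DESeq2 1.42.0, limma-voom (limma 3.58.1), other scalings and filters, a replicate block and leaving out each library. All tests were run on simulated counts, where the only condition set was the right sign for large changes. Their power at the folds of the clock genes is not given.

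The clock genes and the lists were chosen with earlier results of these data known. Named besides the clock genes and Trim21 are up to 4 genes with the smallest unadjusted p per list of the pathway, the 4 nearest profiles per pattern (mean log2 CPM of at least 1, no predicted genes), and some other genes of the lists, chosen after their values were seen. A gene of these lists is not reported here and was left out of their counts.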

Additional observations from a re-analysis of the deposited data

How the results depend on the processing

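DESeq2 called 337 of 15279 genes where edgeR called 0. Of the 81 other clock pathway genes DESeq2 called 3 higher, which were Sgk1, Fkbp5 and Klf4, and 0 lower. Over all genes it called 1.61% higher. It also called Per2, Per3 and Cry1, 3 of the 10 clock genes, against 1.61% of all genes it called higher. Leaving out single libraries gave 0 to 1 genes at an adjusted p under 0.05 and 1107 to 1904 genes at an unadjusted p under 0.05, the fewest without knockout replicate 3 and the 1 call without wild-type replicate 3. Of the 81 other pathway genes, 14 had an unadjusted p under 0.05, against 10.7% of all tested genes, with 9 without knockout replicate 2 or 3 and up to 18 without wild-type replicate 3. With the median over genes in place of the mean, the activator difference was 0.37 and the repressor difference 0.75. Of 140 alternative values for the clock genes, 137 kept their side of the threshold and their direction where the change exceeded its standard error, and the other 3 are the DESeq2 calls above. Across single omissions the arm differences ran from −0.08 to 0.19 for the activators and from 0.41 to 0.62 for the repressors. Same-numbered libraries did not deviate together across all genes (correlations of −0.15, −0.17 and −0.07). A pairing that acts on some genes only cannot be seen in this way. The standard error of Per2 was 0.25 without and 0.18 with a replicate block, and that of Npas2 0.29 and 0.35. With the replicate block, edgeR called 0 genes, had 1293 at an unadjusted p under 0.05, and gave Per2 1.32 and Per3 1.01. Alternatives for the spread within groups were added after the data had been seen and gave 0.296 to 0.351. Among the pathway genes named, relative counting error at the lowest count was largest for Rorb and then Hlf, at 20.85% for the latter.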

Other observations

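Wild-type replicate 3 stood high for several genes that follow feeding, stress or the clock, a choice made after the values were seen. Ppp1r3c, a glycogen-targeting phosphatase subunit, measured 65.8 CPM there and 1.07 to 4.34 CPM in the other 5 libraries. Usp2, a deubiquitinase whose RNA cycles in many tissues, measured 12.6 CPM there against 4.09 to 8.89 CPM. The heat shock gene Hspa1b measured 183.3 CPM there against 16.5 to 86.4 CPM, and Zbtb16, a glucocorticoid-responsive gene, 14.2 CPM against 2.15 to 7.36 CPM. This library was also the highest wild-type sample for Arntl, Npas2, Nr1d1 and Hlf, at 29.3, 25.0, 19.2 and 3.19 CPM. It was the lowest wild-type sample for Nr1d2, Per3 and Dbp, at 107.3, 15.5 and 2.63 CPM, and the middle one for Per2.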
